A study of Homo sapiens with 3 samples.

Results

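The loci described are 7 human genes of the small-RNA pathway and of double-stranded RNA (dsRNA) sensing: DICER1, DROSHA, DGCR8, XPO5, AGO2, ADAR and EIF2AK2. Their members are the dsRNA regions that overlap a fixed hg19 window around each gene by 1 bp or more, which gave 249 of the 271645 deposited regions. Values come from the HEK 293 line, which derives from human embryonic kidney, with 1 dsRNA library from Dicer knockdown cells, 1 dsRNA library from wild-type cells and 1 DICER chromatin immunoprecipitation library from wild-type cells. In both dsRNA libraries total RNA was digested with T1 nuclease, which cuts single-stranded RNA, and what was left was sequenced. The labels do not say how the knockdown was made. Each region is a pair of intervals, 1 per library, and its summit is the greatest read coverage in that library, a whole number. The sheet named induced was read as knockdown and the sheet named normal as wild type, by these names alone, because both samples carry the same workbook. If that reading is wrong, every direction turns round. With 1 library per group there is no replicate error, so each ratio compares the 2 libraries and not the conditions, and no test between them was possible. Total reads per library are unknown. The knockdown summits over all regions add up to 84057405, against 80502410 in wild type.

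In the canonical pathway, the nuclease DROSHA and its RNA-binding partner DGCR8 cut hairpins out of primary microRNA transcripts, exportin 5 (XPO5) carries the hairpins to the cytoplasm, DICER1 cuts them into short duplexes, and AGO2 binds 1 strand and uses it to silence matching messages. ADAR converts adenosine to inosine in dsRNA, and EIF2AK2, the kinase PKR, binds dsRNA and blocks translation. Both limit or report dsRNA in the cell, and both are induced by interferon. DGCR8 messenger RNA holds hairpins that the DROSHA and DGCR8 complex itself cuts, a known feedback on its own level.

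In hg19 the windows spanned 95552500 to 95624400 on chromosome 14 for DICER1, 31400600 to 31532300 on chromosome 5 for DROSHA, and 20067700 to 20099500 on chromosome 22 for DGCR8. Those of XPO5, ADAR and EIF2AK2 spanned 43490000 to 43544000 on chromosome 6, 154554500 to 154600500 on chromosome 1, and 37326000 to 37384300 on chromosome 2. The RefSeq gene table of GRCh38.p14 lists all 7 symbols on the chromosomes that the windows name. Window and gene length differed by 530 bp or less for 6 of the 7, and the RefSeq AGO2 gene was 17.2 kb longer than its window. No hg19 annotation was used here, so exons, introns and UTRs were not assigned, and the files give no strand of the reads. RefSeq also lists genes that overlap some of the 7 genes, DICER1-AS1 at DICER1, POLR1C at XPO5, GPATCH11 at EIF2AK2 and ERICD at AGO2, and reads from overlapping genes cannot be told apart here.

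RefSeq lists 3 microRNA genes inside the 7 loci, MIR1306 and MIR3618 in DGCR8 and MIR3173 in DICER1. Their sequences are shown because a DGCR8 region with the second highest wild-type summit of all members lies at MIR1306, while the other 2 hairpins had no region. The place was judged by distance from the edge of the host gene, allowing for the difference between window and gene length, and not from an hg19 annotation. Whether the DGCR8 region covers the whole of MIR1306 in each library was not checked. The sequences are RefSeq's, of GRCh38.p14, written 5′ to 3′. In the mature microRNAs capitals mark the seed, bases 2 to 8, which pairs with target messages, and in the hairpin they mark both mature arms. No seed was shared among these microRNAs.
hsa-miR-1306-5p: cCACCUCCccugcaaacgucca
hsa-miR-1306-3p: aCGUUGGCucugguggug
hsa-miR-3618: uGUCUACAuuaaugaaaagagc
MIR3173 hairpin: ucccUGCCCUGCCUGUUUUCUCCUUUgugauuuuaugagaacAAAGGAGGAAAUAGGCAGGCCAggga
The MIR3173 hairpin of 68 bases folded with 29 base pairs and a computed free energy of -47.6 kcal/mol, yet the nearest region of DICER1 lay 5.28 kb beyond the tolerance of 118 bp. MIR3618 had no region either, the nearest lying 0.074 kb beyond the tolerance of 169 bp. The sheets used here hold only regions paired between both libraries, so these values do not show that no read fell there.

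Regions were dense in all 7 loci relative to their chromosomes. The loci held 0.499 regions per kb (95% interval 0.439 to 0.565, 249 regions in 499 kb), against 0.276 per kb in flanks of equal length on both sides (0.244 to 0.310, 275 regions) and 0.0903 per kb over all chromosomes. The intervals are exact Poisson intervals and cover counting error only, and chromosome lengths run from the first to the last region, gaps included. Each locus was denser than its own chromosome, from 3.04 times in DICER1 to 11.9 times in XPO5. Against the flanks the loci differed. DROSHA was 4.56 times as dense as its flanks, ADAR 4.31, DICER1 2.71 and EIF2AK2 2.05 times, while DGCR8, XPO5 and AGO2 had ratios of 1.35, 1.12 and 0.964. The order depended on the length of the flanks. With flanks of 0.5 times the locus length ADAR was 28.0 times as dense as its flanks, which then held 1 region, EIF2AK2 3.80, DROSHA 2.71 and DICER1 1.92 times, and AGO2 had a ratio of 0.692. At that length the log2 ratio was -4.5e-05 for DGCR8 and -0.089 for XPO5, so neither stood above its near surroundings.

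**Figure D1:**
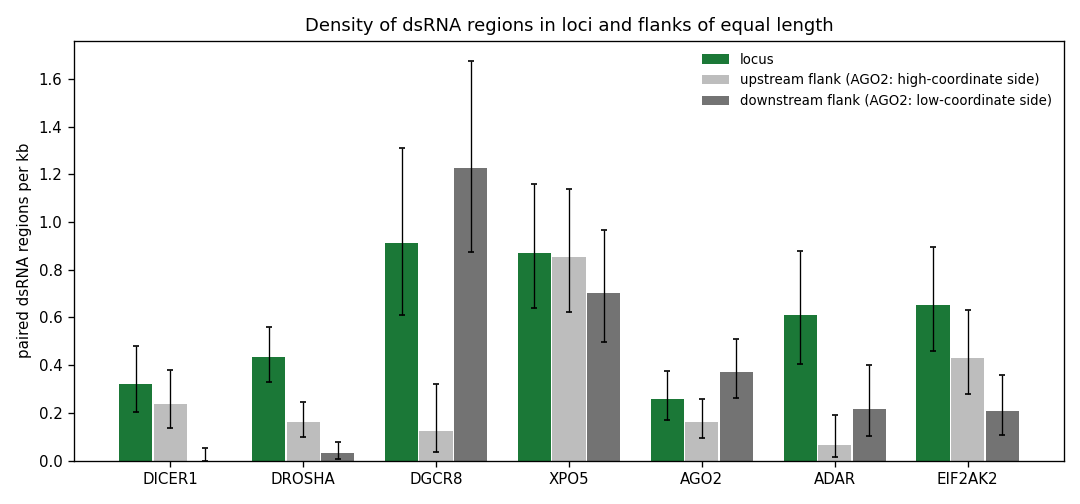
Paired dsRNA regions per kb (y axis) in each locus (green), its upstream flank (light grey) and its downstream flank (dark grey), with exact Poisson 95% intervals that cover counting error. DICER1, DROSHA, XPO5, ADAR and EIF2AK2 stand above both of their flanks, DGCR8 lies below its downstream flank at 1.23 per kb, and AGO2 lies between its flanks.

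The densest locus was DGCR8, with 29 regions and 0.912 per kb (95% interval 0.611 to 1.31). XPO5 followed with 47 regions and 0.870 per kb (0.640 to 1.16), then EIF2AK2 with 38 and 0.652 (0.461 to 0.895), and ADAR with 28 and 0.609 (0.404 to 0.880). DROSHA had the most regions, 57, but in the longest window, which gave 0.433 per kb (0.328 to 0.561). DICER1 had 23 regions and 0.320 per kb (0.203 to 0.480), and AGO2 27 and 0.257 (0.169 to 0.374). Each of these intervals overlaps that of its neighbour in this order, and the differences between neighbouring loci were not tested. The upstream and downstream flanks of DROSHA held 21 and 4 regions, those of ADAR 3 and 10, and those of DICER1 17 and 0. The dense downstream flank of DGCR8 held 39 regions and, per RefSeq, the genes TRMT2A, RANBP1 and ZDHHC8 and the small nucleolar RNA gene SNORA77B.

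Most members were low. The median summit was 2 in knockdown and 5 in wild type, and 61 of the 249 had a summit of 2 or less in both libraries. Only 5 members reached a summit of 100 in either library, 1 in DICER1, 2 in DGCR8 and 2 in XPO5. Summed height per kb was 14.2 in knockdown and 20.2 in wild type for XPO5, 6.79 and 25.1 for DGCR8, and 6.56 and 2.09 for DICER1, again knockdown before wild type. For ADAR it was 2.70 in knockdown and 5.33 in wild type, for EIF2AK2 2.44 and 4.49, for DROSHA 1.99 and 3.60, and for AGO2 0.657 and 1.57. AGO2 was thus the lowest per length in both libraries, and DICER1 was the sole locus with more height in knockdown than in wild type.

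**Figure D2:**
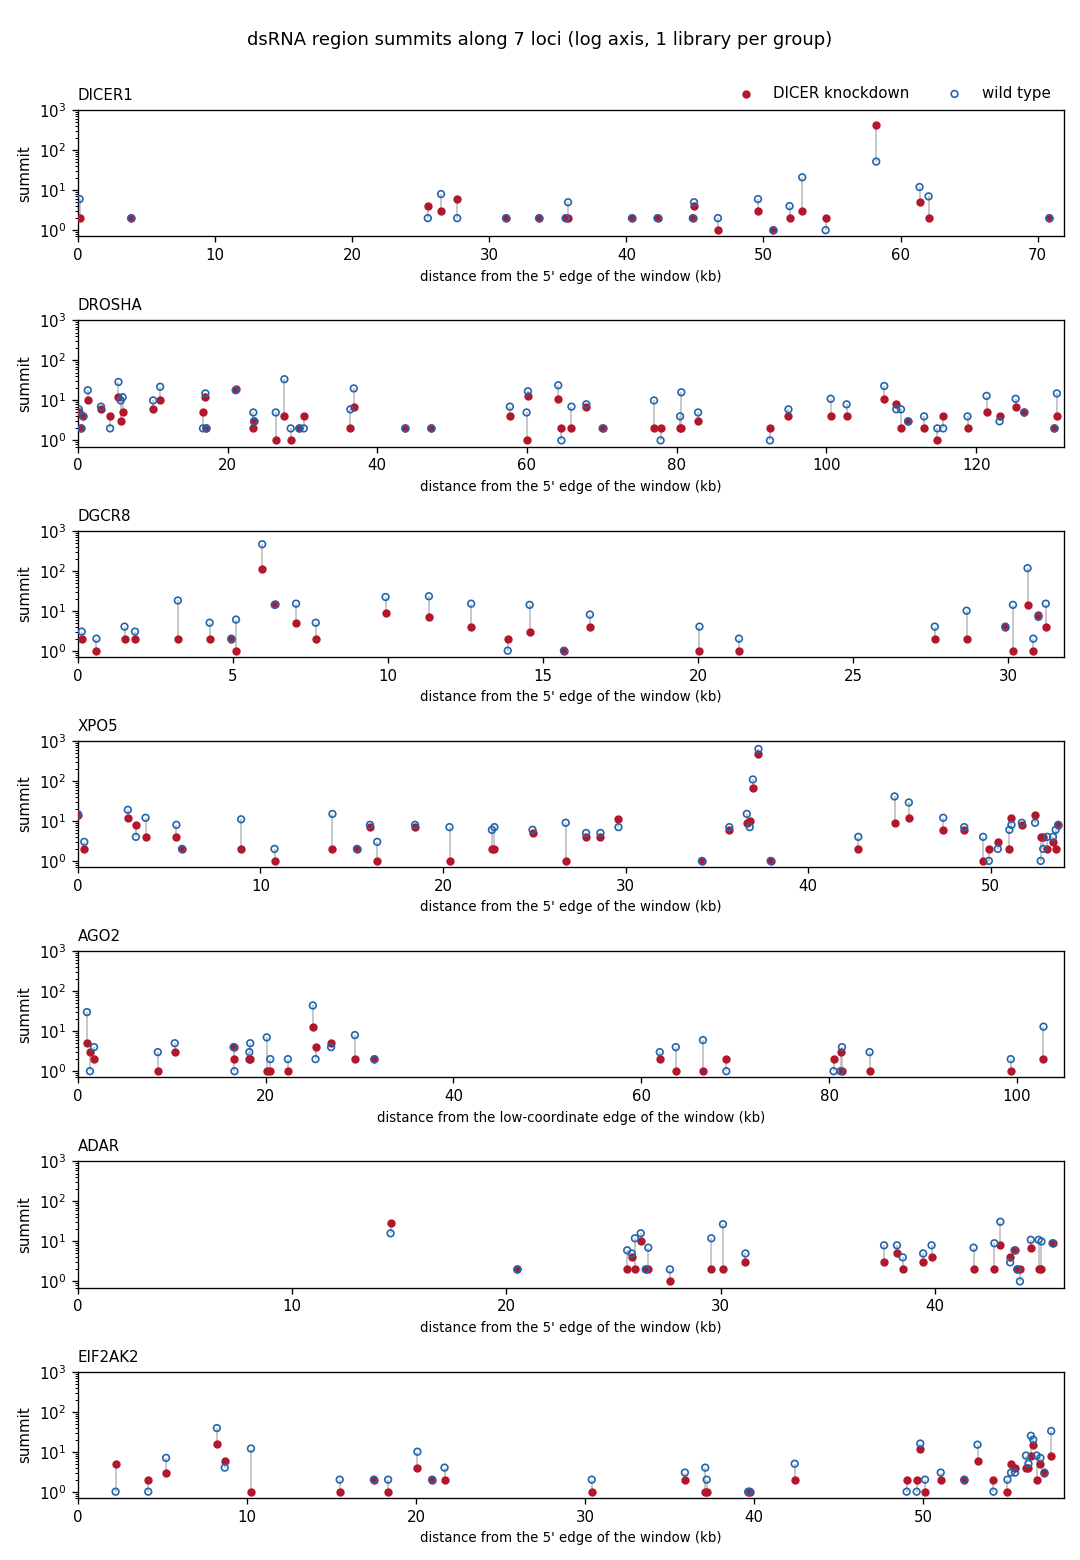
Summit of each region (y axis, log scale) against its distance in kb from the 5′ edge of the window (x axis; for AGO2 from the low-coordinate edge), with knockdown as filled red points and wild type as open blue circles joined by a grey line, 1 library each. The single tall red point in DICER1 stands at 416, above 52 in wild type, while the tall points in DGCR8 and XPO5 are higher in wild type.

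DICER1 is the gene that the knockdown targets. Its highest region lay on chromosome 14, from 95566144 to 95566213, and reached 416 in knockdown and 52 in wild type. This was 7.66-fold higher in knockdown after scaling (95% counting interval 5.73 to 10.4), where scaling multiplied knockdown summits by 0.958 to match the wild-type sum. The interval treats heights as counts and covers counting error only. Among the 35876 regions of all chromosomes with a combined summit of 20 or more, 38 (0.106%) had a log2 ratio as high or higher, this region included. The labels give no sequence of the knockdown reagent, so whether reads of the reagent itself add to this region was not tested. No other member with a combined summit of 20 or more was 2-fold or more higher, where 5.07% of all regions past that floor were.

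The other regions of DICER1 were low, with summits of at most 6 in knockdown and 21 in wild type. Their summits added up to 56 in knockdown and 98 in wild type, a log2 ratio of -0.87, while with the highest region the sums were 472 and 150, a log2 ratio of 1.59. The higher sum in knockdown therefore rested on 1 region, 69 bp wide in knockdown and 64 bp in wild type, which held 88.1% of the summed height in knockdown and 34.7% in wild type. The next highest region, at chromosome 14, 95571488 to 95571649, had 3 in knockdown and 21 in wild type, and the one after it, at 95562972 to 95563066, had 5 and 12. Of the 23 regions, 4 were taller in knockdown, 9 equal and 10 shorter in unscaled summits, where 23.5% of all deposited regions were taller and 51.2% shorter. Here and below, these shares of all deposited regions are not matched for height. The log2 ratios of the 23 had a median of -0.04 (95% interval -0.85 to -0.04 over regions). This median was 0.34 and 0.30 under the median-ratio and reduced-sum scalings, and -1.19 over the 4 regions whose combined summit was at least 10, so it has no settled direction. A stretch of 21.6 kb toward the 5′ end held no region. Summits of nuclease-resistant RNA are not messenger RNA levels, so these values do not check the knockdown.

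DROSHA, the nuclease that starts microRNA processing, had many low regions spread along the gene and none that stood apart. Summits reached 19 in knockdown and 34 in wild type, and the sums were 262 and 474, a scaled fold of 0.529. Of its 57 regions, 36 were shorter in knockdown, 11 equal and 10 taller, where 51.2% of all deposited regions were shorter. The region at chromosome 5, 31504660 to 31504746, had 4 in knockdown and 34 in wild type, which was 7.25-fold lower on the log2(summit + 1) scale. The region with the highest combined summit, at 31526721 to 31527006, had 12 in knockdown and 29 in wild type. Another, at 31511150 to 31511289, was level, with 19 in knockdown and 18 in wild type. Of its 10 regions past a combined summit of 20, 6 were at least 2-fold lower, where 30.8% of all regions past that floor were, and 0 at least 2-fold higher. Besides those named these were at 31468065 to 31468185, with 11 in knockdown and 24 in wild type, at 31424524 to 31424580, with 11 and 23, at 31521248 to 31521336, with 10 and 22, and 1 more of lower rank.

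DGCR8, the partner of DROSHA, was the locus with the lowest ratio of summed summits. Its summed summits were 216 in knockdown and 799 in wild type, a scaled fold of 0.259. The region at MIR1306, at chromosome 22, 20073535 to 20073730 in knockdown and 20073598 to 20073761 in wild type, reached 112 in knockdown and 460 in wild type. Its scaled ratio was 0.233 (95% counting interval 0.188 to 0.287). The log2 ratio of this region was -2.09, and -1.55 and -1.60 under the median-ratio and reduced-sum scalings, a shift that the counting interval does not cover. Near the 3′ edge, the region at 20098280 to 20098345 had 14 in knockdown and 116 in wild type, a ratio of 0.116 (0.0613 to 0.202). The lower regions at 20077543 to 20077716, with 9 in knockdown and 22 in wild type, at 20079016 to 20079114, with 7 and 23, and at 20070914 to 20070964, with 2 and 18, went the same way. Without the highest region the sums were 104 in knockdown and 339 in wild type, a log2 ratio of -1.77. In DGCR8, 23 of 29 regions were shorter in knockdown, 3 equal and 3 taller, where 51.2% of all deposited regions were shorter. The median log2 ratio of -1.04 (95% interval -1.73 to -0.62 over regions) was the lowest of the 7 loci when every region was counted. Where the combined summit was at least 10 it was -1.73 over 14 regions of DGCR8, and AGO2 was lower, at -2.00 over 4. The dense downstream flank of DGCR8 had sums of 5261 in knockdown and 6288 in wild type, a scaled fold of 0.801. There 1 region, with 4925 and 5698, held 93.6% of the knockdown sum and 90.6% of the wild-type sum. Leaving that region out gave 336 and 590, a scaled fold of 0.545. Among the 39 flank regions 27 were shorter in knockdown, 5 equal and 7 taller. Their log2 ratios had a median of -0.69 (95% interval -1.04 to -0.27 over regions).

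XPO5, the export receptor for microRNA hairpins, held the highest member in both libraries. It spanned 43506597 to 43506857 on chromosome 6 and reached 475 in knockdown and 631 in wild type, a scaled ratio of 0.721 (95% counting interval 0.639 to 0.813). Close beside it, the region at 43506996 to 43507059 had 65 in knockdown and 109 in wild type. By distance from the gene's edge both lie at RPS2P29, a pseudogene that RefSeq lists inside XPO5, and 4 regions in all lay there with sums of 559 in knockdown and 762 in wild type. A pseudogene shares sequence with its parent gene, so reads there may come from elsewhere, and the placement of reads that match several sites is not stated in the labels. The region at 43499223 to 43499322 lay outside it and had 9 in knockdown and 41 in wild type, and the one at 43498422 to 43498562 had 12 and 29. Over the 47 regions 33 were shorter in knockdown, 5 equal and 9 taller, where 51.2% of all deposited regions were shorter. The median log2 ratio of the 47 was -0.37 (-0.78 to -0.22). That median was at or just above 0 under the scalings that leave out the highest regions or use the median ratio, at 0.019 and 0.076. Under these scalings the highest region was itself the median region of the 47, so these are also its log2 ratios.

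AGO2, the slicing Argonaute protein, had few and low regions in its window, 141541000 to 141646000 on chromosome 8. Sums were 69 in knockdown and 165 in wild type, a scaled fold of 0.400. Its highest region, at chromosome 8, 141565993 to 141566063, had 13 in knockdown and 44 in wild type, and the next, at 141541927 to 141542026, had 5 and 30, while the one at 141643780 to 141643867 had 2 and 13. Only the first 2 of these had a combined summit of 20 or more. Both were at least 2-fold lower in knockdown, where 30.8% of all regions past that floor were. Of all 27, 19 were shorter in knockdown, 1 equal and 7 taller, where 51.2% of all deposited regions were shorter. Regions of AGO2 were gathered at the low-coordinate end, with 14 of 27 in the first 25% of the window, and its longest empty stretch was 30.3 kb.

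ADAR, the editing enzyme, had 1 region higher in knockdown among its tallest. That region, from 154585886 to 154585929 on chromosome 1, reached 29 in knockdown and 16 in wild type, a scaled ratio of 1.74 whose counting interval, 0.912 to 3.42, includes 1. It was the region nearest to the 5′ end, 14.6 kb from the edge. The next were lower. At 154570404 to 154570531 the summit was 2 in knockdown and 27 in wild type, 9.60-fold lower on the log2(summit + 1) scale, and at 154557415 to 154557508 it was 8 and 31. Sums were 124 in knockdown and 245 in wild type, a scaled fold of 0.485. In ADAR 20 of 28 regions were shorter in knockdown, 5 equal and 3 taller, where 51.2% of all deposited regions were shorter.

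EIF2AK2, the dsRNA-activated kinase, had sums of 142 in knockdown and 262 in wild type, a scaled fold of 0.519. The highest region, at chromosome 2, 37376036 to 37376123, had 16 in knockdown and 39 in wild type, and it lay about where RefSeq lists the pseudogene ARL14EPP1. The next, at 37326645 to 37326849 beside the 3′ edge, had 8 in knockdown and 33 in wild type. A neighbour of it, at 37327784 to 37327841, differed less, with 15 in knockdown and 20 in wild type. Further in, the region at 37327843 to 37328040 had 8 in knockdown and 25 in wild type, and that at 37330992 to 37331181 had 6 and 15. Over the locus 24 of 38 regions were shorter in knockdown, 6 equal and 8 taller, where 51.2% of all deposited regions were shorter.

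**Figure D3:**
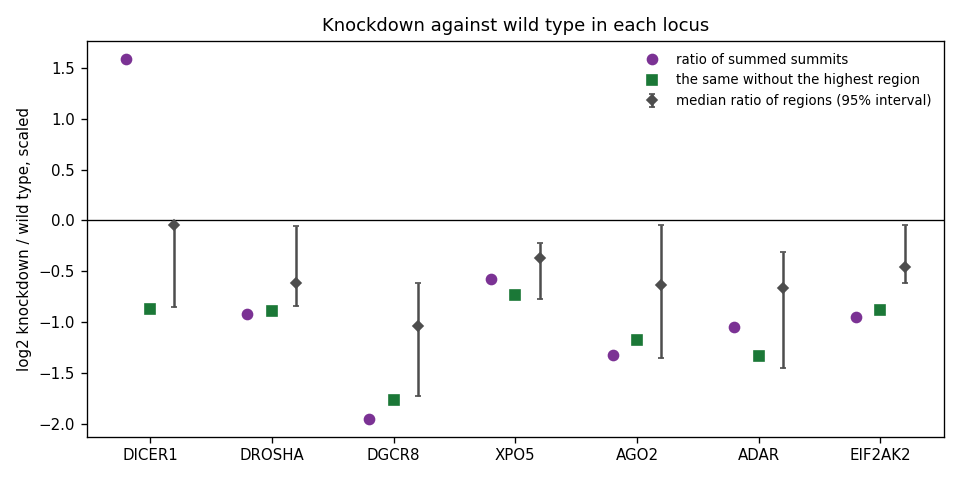
Scaled log2 ratio of knockdown to wild type (y axis) in each locus: ratio of summed summits (purple circles), the same without the highest region (green squares) and the median over regions with its 95% interval over regions (grey diamonds). DICER1 is at 1.59 with its highest region and at -0.87 without it, and the other 6 loci are below 0 by all 3 measures, though the XPO5 median is at 0.019 and 0.076 under 2 other scalings.

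With the 7 loci pooled, a larger share of members than of regions in general was lower in knockdown, but not in each locus. Of the 40 members past a combined summit of 20, 23 were 2-fold or more lower in knockdown, where 30.8% of all 35876 such regions were, and 1 was 2-fold or more higher, where 5.07% were. In the flanks 12 of 44 such regions were 2-fold or more lower and 1 was higher. By locus, the members 2-fold or more lower were 6 of 7 in DGCR8, 6 of 10 in DROSHA and 4 of 6 in EIF2AK2. ADAR had 2 of 4, AGO2 2 of 2 and DICER1 1 of 2. XPO5 had 2 of 9, a smaller share than that of all regions. The median log2 ratio was -1.18 in the loci (95% interval -1.47 to -0.68; regions are not replicates), -0.30 in the flanks (-0.69 to -0.06) and -0.53 over all regions. Without the highest region of each locus it was -1.12. With scaled summits, 6 of the 40 members were higher in knockdown, against 26.9% of all regions. With no floor on height, 165 of the 249 members had a shorter summit in knockdown before scaling, against 51.2% of all regions, and 44 a taller one, against 23.5%. These shares were not matched for height. The median wild-type summit was 5 in members and 3 over all regions, of which 24453 had a summit of 1 in both libraries and so could only be equal.

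The count of lower members depended on the scaling and the floor. Scaled to the median ratio, the knockdown summits moved up by 0.55 on the log2 scale and 14 of the 40 members were 2-fold or more lower, against 17.7% of all regions past the floor, and 3 were higher, against 12.8%. When the highest 1% of regions was left out of the sums, the shift was 0.49, and 15 members were lower, against 18.4%, and 2 higher, against 11.5%. Lowering the floor to a combined summit of 10 gave 53 of 102 members 2-fold or more lower, against 36.8% of all regions, and 1 higher, against 5.99%. With no floor 85 of 249 were lower, against 23.3%, and 5 higher, against 4.35%. Under the 2 scalings the median over members was -0.68 and -0.74, against 0 and -0.054 over all regions past the floor. Both scalings move every region up, but low regions by less, because 1 is added to each summit.

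How members compared with other regions depended on the class of height, and in the 2 lowest classes, which hold most members, the medians were the same. Among regions with a mean summit of 10 to below 30, the median log2 ratio was -1.25 over 35 members (95% interval -1.47 to -0.68), -0.30 over 36 flank regions (-0.74 to 0.15) and -0.68 over all 24559. In that class 21 of the 35 members were 2-fold or more lower, against 37.3% of all regions, and 0 were higher, against 4.96%. At 3 to below 10 the median was -0.78 over 128 members (-1.04 to -0.64), over the flanks and over all regions alike, while 54 of the members were 2-fold or more lower, a share of 42.2% against 33.3% in the flanks and 35.1% of all regions. In the same class 2 members were 2-fold or more higher, 1.56% against 6.50% of all regions. At 1 to below 3 the median was -0.04 over 81 members and -0.04 over all, and 8 members were 2-fold or more lower, 9.88% against 10.4%. The 2 members at 30 to below 100 had a median of -1.91, against -0.96 over 6 flank regions and -0.41 over all regions. Only 3 members stood at 100 or above.

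**Figure D4:**
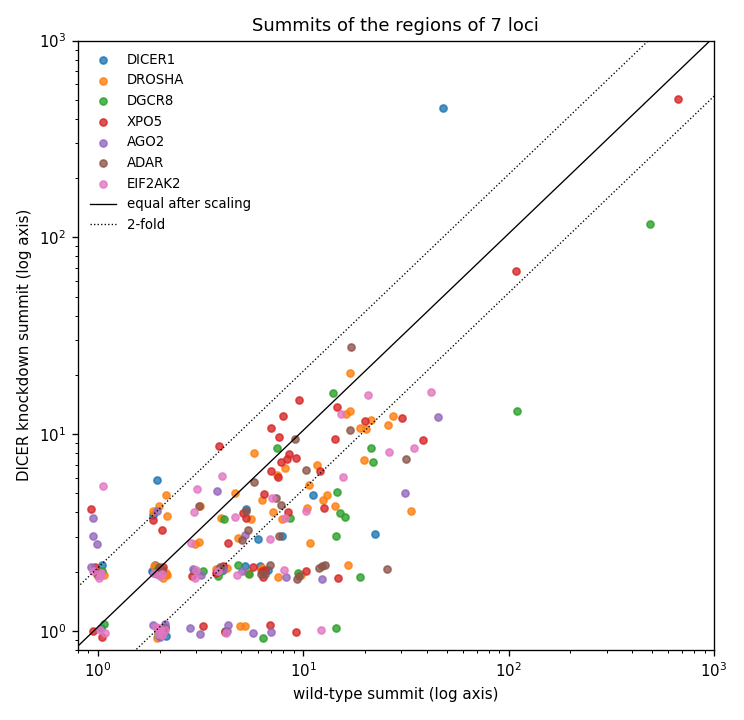
Knockdown summit (y axis) against wild-type summit (x axis) for the 249 regions, coloured by locus, both on log scales and shifted slightly at random so that equal values show; the solid line marks equality after scaling and the dotted lines 2-fold. The DICER1 region at 416 against 52 is the one tall point above the upper dotted line. Of the 40 points whose 2 summits add up to at least 20, 34 lie below the solid line and 6 above. Past that floor, 26.9% of all regions lie above the solid line.

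Regions also differed in width. The median width in the loci was 63 bp in knockdown and 72 bp in wild type, against 58 bp and 75 bp in the flanks and 55 bp and 62 bp over all regions. The knockdown interval was the narrower in 154 of 249 members, a share of 61.8%, against 54.9% in the flanks and 53.8% of all regions. The part of width in the ratios was not tested.

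Along the genes, regions of ADAR and EIF2AK2 lay mostly toward the 3′ end. In ADAR 16 of 28 regions lay in the last 25% of the window and 0 in the first. EIF2AK2 likewise had 19 of 38 in its last 25%, all within 10 kb of the 3′ edge, a stretch that is 17.2% of the window. XPO5 had 18 of 47 in its last 25%. DROSHA, by contrast, had 22 of 57 in its first 25% and 16 in its last, and DGCR8 12 of 29 and 8. DICER1 was fullest just past its middle, with 9 of 23 in the 25% that follow it. Over the 6 loci with a strand in the RefSeq table, the 4 bins of 25% from 5′ to 3′ held 51, 40, 49 and 82 regions. No difference between loci was tested, and whether the 3′ ends hold repeats was not checked.

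**Figure D5:**
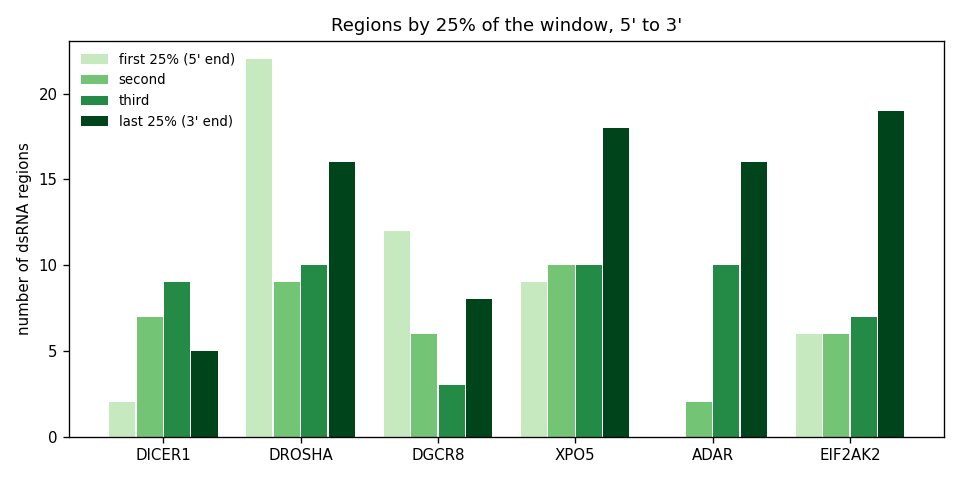
Number of dsRNA regions (y axis) in each 25% of the window from 5′ (light) to 3′ (dark) for the 6 loci with a strand in the RefSeq table. ADAR and EIF2AK2 have 16 and 19 regions in the last 25%, and DROSHA has 22 in the first.

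None of the loci met the authors' own lists, but both lists are short. The deposited final set holds 1003 regions with a summit of at least 1506 in knockdown and 1507 in wild type, and 0 of the 249 members reached that height or the set. The set is 1003 of the 271645 deposited regions, a share so small that 0 among 249 members does not set these loci apart. The nearest member of the set, at chromosome 22, 20113844 to 20114073, lay 14.3 kb beyond the DGCR8 window, in its downstream flank, with 4925 in knockdown and 5698 in wild type. Of the 119 listed DICER peaks, 0 overlapped any of the 7 windows. With so few peaks over all chromosomes, 0 in 499 kb of windows does not set the loci apart either. Distance to the nearest peak was shortest for ADAR, at 911 kb, and 3871 kb or more for DROSHA, EIF2AK2, DICER1, XPO5 and AGO2, and chromosome 22 had no listed peak. Whether peaks below the lowest listed score lie at these genes was not analysed here.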

How the data were processed

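Members and lists were chosen with earlier results of these data known. Samples were grouped by title, with 1 library in each group. Bowtie 0.12.7 and MACS 1.4 are listed for the ChIP library, and bcl2fastq 1.8.4 and BWA 0.7 for the dsRNA libraries, all with hg19, per the submitters' processing notes. No label or header states how dsRNA regions were called. The authors' summit is a coverage signal per region, read from paired ends of 50 bp per the labels, and no header states a normalization. Each deposited DICER peak has a position and a score, and only its position was used. Coordinates of dsRNA regions are printed as deposited. Both sheets were paired by row, and a region entered a locus when either interval overlapped the window. Knockdown summits were multiplied by 0.958, the ratio of summed summits, and log2((knockdown + 1)/(wild type + 1)) was taken, which understates ratios of low regions. Ratios of sums, and those with a counting interval, have no pseudocount. Counts of 2-fold differences used a combined summit of 20 or more. Medians carry 95% binomial order-statistic intervals. All intervals and depths concern these libraries only. Named regions were the 3 highest of each locus, those past 2-fold (up to 5 per direction) and any at a peak or in the final set. Sequences and gene names came from RefSeq tables of GRCh38.p14, whose distances inside a gene were compared but whose coordinates were not converted. AGO2 had no row in the promoter table, so its sides go by coordinate. Python 3.11.15, pandas 2.3.3, scipy 1.17.1 and RNAfold 2.7.2 were used, and the ratio and overlap steps were checked on simulated regions.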

Additional observations from a re-analysis of the deposited data

How the results depend on the processing

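No paired analysis was possible because only 1 library stands for each group. The scalings of single regions and of locus medians were chosen after seeing the data. Scaled to the median ratio or with sums without the highest 1% of regions, 3 and 2 of the 40 members were 2-fold or more higher (12.8% and 11.5% of all regions) and 14 and 15 lower (17.7% and 18.4%). The log2 ratios of summed summits under these 2 scalings were 2.14 and 2.08 for DICER1, -0.37 and -0.43 for DROSHA, -1.40 and -1.46 for DGCR8, -0.028 and -0.084 for XPO5, -0.77 and -0.83 for AGO2, -0.50 and -0.55 for ADAR, and -0.40 and -0.45 for EIF2AK2. The median ratio of DICER1 turned to 0.34 and 0.30 (-1.19 at a combined summit of 10 or more). That of XPO5 turned to 0.076 and 0.019, the values of its highest region, which was then the median one. Without the highest region the summed ratio was -0.87 for DICER1 and -0.73 for XPO5. With no floor the median over the loci was -0.62, with 5 of 249 members 2-fold or more higher (4.35% of all regions) and 85 lower (23.3%), and at a combined summit of 10 or more 53 of 102 were lower (36.8%). The log2 ratio of locus to flank density was 0.86, 1.31 with flanks of 2 times the length, and turned to -4.5e-05 for DGCR8 and -0.089 for XPO5 with flanks of 0.5 times. Widening the windows by their length took in 1 region of the final set. Of 109 alternative values, 59 moved by less than the tolerance set for them, 41 moved further and 9 changed sign. Low heights limit most members, since 226 of 249 had no summit above 20.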
